A study of Mus musculus with 27 samples.

Results

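The p53 target genes described here are 10 mouse genes: Cdkn1a (ENSMUSG00000023067), Mdm2 (ENSMUSG00000020184), Bax (ENSMUSG00000003873), Bbc3 (ENSMUSG00000002083), Gadd45a (ENSMUSG00000036390), Phlda3 (ENSMUSG00000041801), Ccng1 (ENSMUSG00000020326), Trp53inp1 (ENSMUSG00000028211), Plk3 (ENSMUSG00000028680) and Sesn1 (ENSMUSG00000038332). They were taken by name, as the entries of the count table whose Ensembl identifiers map to these symbols; the rule uses no measured value, but the genes were chosen with earlier results of these data known. All 10 were found among the 52550 genes of the table, and all 10 had enough reads to be tested in every comparison.

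The transcription factor p53, encoded by Trp53, is kept scarce in unstressed cells by the ubiquitin ligase Mdm2 and its partner Mdm4, and it accumulates after DNA damage and other stress. It then binds response elements near its target genes and raises their transcription. The products halt the cell cycle (Cdkn1a, which encodes the kinase inhibitor p21), help repair damage (Gadd45a), start apoptosis at mitochondria (Bax and Bbc3), restrain growth signalling (Sesn1 and Phlda3) and switch p53 off again (Mdm2 and Ccng1). In the gut this response is known for the death and arrest of crypt cells after irradiation, and several of its genes also respond to other stress pathways.

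The study sequenced RNA from the ileum (the end of the small intestine), the cecum (the pouch at the start of the large intestine) and the colon of male C57BL/6 mice. The mice were 6 weeks old at the start, had 7 days to settle, and were split at random into 10 per diet. Over the next 60 days the control mice ate a standard feed and the test mice ate the same feed blended with arsenic at 30 ug/g, of which sodium arsenite made up 72.7%, the dimethylated form DMA 19.0%, sodium arsenate 7.3% and the monomethylated form MMA 1.0%. The 27 libraries are 13 of control mice, 4 each from ileum and cecum and 5 from colon, and 14 of arsenic-fed mice, 5 each from ileum and cecum and 4 from colon. The labels give no genetic alteration and no other treatment, and they do not state whether equal library numbers in different regions came from the same mouse, so p-values measure the spread between libraries.

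Promoter sequences were taken from RefSeq (GRCm38.p6) for 9 of the 10 genes (all but Trp53inp1), with 13 annotated starts in all, and the 250 bases before each start were searched on both strands for the p53 decamer, the 10-base unit of a p53 response element. The following 6 windows are shown because they belong to genes on which the results turn, and because they contrast 5 genes that hold a decamer with 1 that does not. Each is written 5′ to 3′ on the strand of the gene, ends at the base before the start, and has decamers in capitals.
Cdkn1a, first of 2 starts, chr17:29090729-29090978, plus strand: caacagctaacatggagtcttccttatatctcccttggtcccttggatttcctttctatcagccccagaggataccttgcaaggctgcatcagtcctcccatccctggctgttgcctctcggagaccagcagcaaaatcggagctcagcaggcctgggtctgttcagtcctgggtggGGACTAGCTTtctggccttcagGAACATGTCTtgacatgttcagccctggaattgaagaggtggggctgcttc
Mdm2, chr10:117710759-117711008, minus strand: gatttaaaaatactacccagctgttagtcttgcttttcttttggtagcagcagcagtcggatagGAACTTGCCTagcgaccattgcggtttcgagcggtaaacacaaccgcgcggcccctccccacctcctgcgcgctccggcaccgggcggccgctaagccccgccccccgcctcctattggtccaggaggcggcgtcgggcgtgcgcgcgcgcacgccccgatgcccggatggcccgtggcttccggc
Gadd45a, chr6:67037408-67037657, minus strand: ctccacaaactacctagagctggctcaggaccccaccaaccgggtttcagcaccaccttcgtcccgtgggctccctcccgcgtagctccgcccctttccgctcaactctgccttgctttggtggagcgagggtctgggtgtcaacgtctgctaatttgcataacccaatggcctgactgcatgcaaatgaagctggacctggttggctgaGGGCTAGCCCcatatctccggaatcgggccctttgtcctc
Ccng1, chr11:40755287-40755536, minus strand: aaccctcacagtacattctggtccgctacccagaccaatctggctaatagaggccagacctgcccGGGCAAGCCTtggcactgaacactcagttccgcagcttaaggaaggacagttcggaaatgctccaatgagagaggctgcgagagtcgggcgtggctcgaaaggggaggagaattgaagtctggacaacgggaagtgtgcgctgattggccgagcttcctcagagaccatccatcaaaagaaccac
Sesn1, second of 2 starts, chr10:41887189-41887438, plus strand: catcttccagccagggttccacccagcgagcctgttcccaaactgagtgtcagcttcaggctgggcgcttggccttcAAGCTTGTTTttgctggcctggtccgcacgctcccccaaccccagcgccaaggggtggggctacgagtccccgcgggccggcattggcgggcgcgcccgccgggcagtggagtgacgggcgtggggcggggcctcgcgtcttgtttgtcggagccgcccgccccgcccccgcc
Plk3, chr4:117133964-117134213, minus strand: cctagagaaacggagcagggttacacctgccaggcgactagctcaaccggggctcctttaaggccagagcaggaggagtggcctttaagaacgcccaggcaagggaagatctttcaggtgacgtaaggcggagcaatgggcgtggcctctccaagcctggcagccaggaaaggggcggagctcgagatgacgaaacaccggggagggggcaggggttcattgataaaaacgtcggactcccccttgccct
The Cdkn1a window holds 2 decamers, GGACTAGCTT and GAACATGTCT, whose first bases lie 73 and 51 bases before the start. Mdm2 has GAACTTGCCT, 186 bases before its start, Ccng1 has GGGCAAGCCT at 185 and Sesn1 has AAGCTTGTTT at 173. The single decamer of Gadd45a, GGGCTAGCCC, begins 40 bases before the start. Bax, not printed, has AGGCAAGCTT at 201.

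The window of the second Cdkn1a start and that of the first Sesn1 start held no decamer. Thus 6 of the 13 windows, from 6 of the 9 genes with a sequence, had a decamer, whereas 7.13% of 32851 mouse promoter windows of the same length had one. The genes were chosen as p53 targets, so this is a description of them and not a finding. No decamer was found in these windows for Bbc3, Phlda3 or Plk3, which says only that these letters are not in these 250 bases. The Plk3 window holds TGACG, the core of the cAMP response element, in 2 places, 132 and 63 bases before the start. This sequence is in 17.8% of all windows, and also in windows of Bbc3 and Sesn1. The E-box CACGTG, to which clock and Myc proteins can bind, was found in windows of Bax and Bbc3 and in 6.02% of all windows.

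Libraries held 15717600 to 18208518 counted reads, and libraries of a group correlated at 0.979 to 0.997 on a log scale. In the cecum, 21832 to 22130 genes had a count in control libraries and 22351 to 23119 in arsenic libraries. The scaling factors (TMM) of these libraries were 0.852 to 0.884 on control and 0.9025 to 0.985 on arsenic feed. Neither measure overlapped between the diets there, and the part of this difference in the cecum results was not tested. The counts of single target genes ran from 63 (the lowest Bbc3 library) to 10523 (the highest Cdkn1a library). Tissue labels fitted the regional markers: the 6 ileum markers summed to 11600 to 33200 CPM (read counts scaled to library size) in ileum libraries, and to at most 2130 CPM elsewhere. Ileum arsenic libraries 14 and 15 stood apart, with the bile acid carrier Fabp6, a marker of the distal ileum, at 6.13 and 1.33 CPM, against 218.6 to 4272 CPM in the other ileum libraries. Mt1, a metal-binding protein induced by arsenic, was at 102.5 to 244.3 CPM on arsenic and 34.8 to 43.3 CPM on control feed in the ileum, and at 58.1 to 80.2 against 19.2 to 22.6 CPM in the cecum. In the colon it was at 47.1 to 111.4 CPM on arsenic, but colon control library 1 reached 57.75 CPM while the other 4 controls were at 16.9 to 28.4 CPM. In whole tissue, fewer cells of a type and less RNA per cell cannot be told apart.

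On control feed the target genes did not share 1 profile along the gut. Plk3 and Trp53inp1 were scarce in the ileum and abundant in the large intestine, Cdkn1a peaked in the cecum, and Sesn1 was high in the ileum alone. Of the 10 genes, 7 differed between cecum and ileum (5 higher and 2 lower in the cecum), against 54.9% of all genes tested, 28.4% higher and 26.5% lower (edgeR, adjusted p under 0.05). Between colon and cecum 6 differed (2 higher and 4 lower in the colon), against 47.2% (21.9% higher and 25.3% lower). Between colon and ileum 7 differed (4 higher and 3 lower), against 52.2% (27.7% higher and 24.5% lower). Counts of this size are near those of genes in general.

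Sesn1 encodes a sestrin, which holds back the growth kinase mTORC1. Its levels in the control ileum were 127.0, 124.7, 157.5 and 158.2 CPM, in the control cecum 20.2, 18.6, 21.1 and 18.8 CPM, and in the control colon 27.8, 25.7, 23.5, 19.1 and 31.5 CPM. Every ileum library was far above every library of the other regions. The log2 difference was -2.86 ± 0.14 (SE) for cecum against ileum (edgeR adjusted p = 1.32e-09) and -2.48 ± 0.13 for colon against ileum (edgeR adjusted p = 2.97e-09). The smaller step from cecum to colon, 0.38 ± 0.13 on the log2 scale, passed the test (edgeR adjusted p = 0.0279), but it did not without cecum control 1, 2 or 5 or colon control 5 (edgeR adjusted p from 0.0537 to 0.0759) or with a replicate block (adjusted p = 0.0558).

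Plk3, a polo-like kinase of the stress response whose gene is also an immediate early gene, ran the other way. It was at 14.7, 15.8, 17.0 and 12.7 CPM in the control ileum, at 108.6, 117.9, 175.4 and 105.4 CPM in the control cecum, and at 35.1, 46.6, 93.9, 110.4 and 27.3 CPM in the control colon. The cecum and ileum libraries did not overlap, and the log2 difference was 3.07 ± 0.43 (edgeR adjusted p = 7.2e-05). The control colon was the most scattered of the 6 groups for Plk3 (coefficient of variation 59.3%), and the difference from the cecum, -1.01 ± 0.37 (edgeR adjusted p = 0.04), was called in only 4 of 13 fits that left out a library, and was lost with upper-quartile scaling and without a filter (edgeR adjusted p = 0.0722 and 0.0907).

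Trp53inp1, a stress protein of nuclear bodies and autophagy, was at 42.0 ± 2.42 CPM in the ileum (SD, n = 4), 124.1 ± 14.7 CPM in the cecum (n = 4) and 117.6 ± 28.6 CPM in the colon (n = 5). It rose from ileum to cecum by 1.56 ± 0.17 (log2 scale, edgeR adjusted p = 3.21e-06), and cecum and colon did not differ beyond their spread (log2 difference -0.07 ± 0.16, edgeR adjusted p = 0.735). Cdkn1a was at 235.6 ± 17.5, 558.5 ± 53 and 350.1 ± 65.1 CPM in the same order, and all 3 steps passed the test, cecum against ileum by 1.24 ± 0.14 (edgeR adjusted p = 4.14e-06). Phlda3, which blocks the membrane docking of the kinase Akt, had the opposite order, with 30.4 ± 10.1 CPM in the ileum, 7.46 ± 1.70 CPM in the cecum and 16.3 ± 4.88 CPM in the colon.

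The remaining genes varied less. Mdm2 was at 63.7 ± 6.08, 92.8 ± 20.0 and 50.2 ± 6.48 CPM in ileum, cecum and colon, highest in the cecum in both tests against it, and its difference between colon and ileum (-0.35 ± 0.13, edgeR adjusted p = 0.0409) was lost without ileum control 1, 2 or 5, cecum control 5 or colon control 1, 2 or 5 (edgeR adjusted p from 0.0511 to 0.121) and by limma voom with sample weights (adjusted p = 0.0614). Gadd45a was at 30.8 ± 2.48, 48.3 ± 10.8 and 24.0 ± 4.73 CPM, likewise highest in the cecum, while ileum and colon did not differ by the test (edgeR adjusted p = 0.0666), but did without cecum control 4, colon control 1 or colon control 3 (edgeR adjusted p from 0.0306 to 0.0388), with upper-quartile scaling (-0.40, edgeR adjusted p = 0.0448), by limma voom with sample weights (-0.43, adjusted p = 0.041) and with a replicate block (-0.40, adjusted p = 0.0463). Bbc3 was at 4.08 ± 0.344, 5.92 ± 1.24 and 7.92 ± 2.37 CPM, and only colon against ileum passed the test (0.95 ± 0.23, edgeR adjusted p = 0.0027). Without colon control 1, its steps from ileum to cecum and from cecum to colon passed as well (edgeR adjusted p = 0.0272 and 0.0103). The first also passed with all 27 libraries in 1 edgeR fit (adjusted p = 0.0406), and the second by limma voom with sample weights (adjusted p = 0.0339). In the main edgeR fit of the 13 control libraries, Ccng1 and Bax were called between no pair of regions. Bax was called lower in the colon than in the cecum without colon control 1, the highest Bax library of that group (-0.53, edgeR adjusted p = 0.00833), by limma voom with sample weights (-0.47, adjusted p = 0.019) and with all 27 libraries in 1 edgeR fit (-0.37, adjusted p = 0.0377). Ccng1 was called higher in the colon than in the cecum with upper-quartile scaling (0.19, edgeR adjusted p = 0.044).

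**Figure D1:**
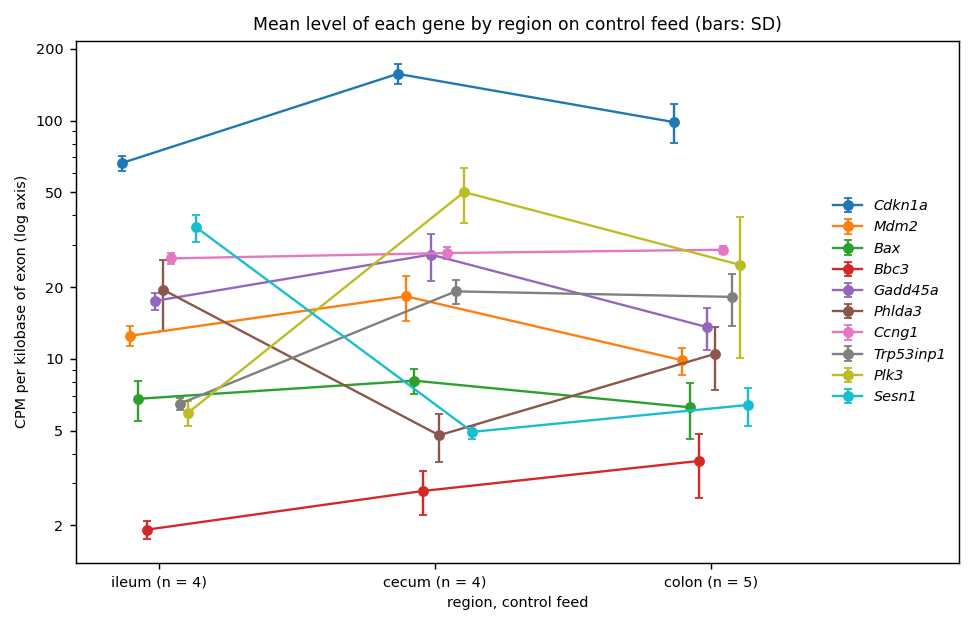
Mean CPM per kilobase of exon (log axis, bars SD) of each of the 10 genes in control ileum, cecum and colon. Cdkn1a is the highest line in each region and Bbc3 the lowest, Sesn1 drops from 35.6 in the ileum to 4.94 in the cecum, and Plk3 climbs from 5.94 to 50.1.

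Divided by exon length, which allows genes to be compared, Cdkn1a ranked first of the 10 in every region, at 66.3 CPM per kilobase in the control ileum, and at 157.0 and 98.5 in the control cecum and colon. Bbc3 ranked last throughout, at 1.92, 2.79 and 3.73 CPM per kilobase. Sesn1 moved from rank 2 in the ileum to rank 8 in the cecum and colon, whereas Plk3 moved from rank 9 to rank 2 and then 3. In the plot of levels by region these lines cross, while that of Ccng1 stays nearly flat at 26.4, 27.8 and 28.7 CPM per kilobase.

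The dietary comparison asked how arsenic in the feed altered each region. In the cecum 6 of the 10 genes changed: Plk3, Gadd45a and Mdm2 fell, and Ccng1, Trp53inp1 and Sesn1 rose. In the ileum Bbc3 alone passed the test, and it rose. In the colon none did. Cdkn1a, the target gene most often read as a sign of p53 activity, was called in no region.

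The 6 genes called in the cecum compare with 25.2% of 15590 genes tested there (11.3% higher and 13.9% lower). The 1 called in the ileum compares with 7.3% of 16305 genes (4.02% higher and 3.28% lower), and the 0 called in the colon with 0.649% of 16492 genes. At an unadjusted p under 0.05 the edgeR counts were 6 of 10 in the cecum (38.4% of all genes), 6 of 10 in the ileum (25% of all genes) and 1 of 10 in the colon (14.6% of all genes). DESeq2 and limma voom with sample weights each called 1 member in the colon, Gadd45a. The median log2 change of the 10 genes was -0.04 in the cecum, -0.26 in the ileum and -0.08 in the colon, beside 0.022, -0.002 and -0.007 over all genes, and rises and falls were mixed in each region.

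**Figure D2:**
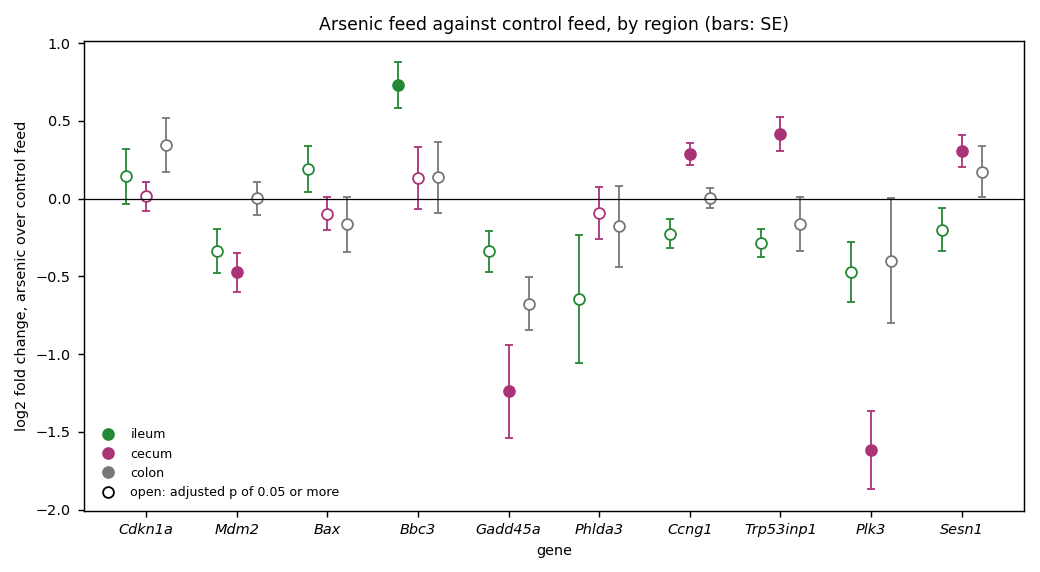
Log2 fold change of each gene on arsenic over control feed in ileum, cecum and colon, with SE bars, filled where the edgeR adjusted p was under 0.05. The falls of Plk3 (-1.62) and Gadd45a (-1.24) in the cecum are the lowest filled points, and the rise of Bbc3 (0.73) in the ileum is the highest.

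Among genes that arrest the cell cycle or answer damage, Plk3 showed the largest change. In the control cecum it was at 108.6, 117.9, 175.4 and 105.4 CPM, and in the arsenic cecum at 61.5, 37.6, 35.0, 29.8 and 37.0 CPM. All 5 arsenic libraries lay below all 4 controls, and library 11 was the highest of the 5. The log2 change was -1.62 ± 0.25 (edgeR adjusted p = 0.00327). In the ileum Plk3 was at 14.7, 15.8, 17.0 and 12.7 CPM on control and 8.51, 8.45, 14.04, 9.79 and 15.1 CPM on arsenic feed, groups that overlap (-0.47 ± 0.19, edgeR adjusted p = 0.161). In the colon the arsenic libraries, at 42.1 to 54.7 CPM, lay inside the control range of 27.3 to 110.4 CPM.

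Gadd45a encodes a small stress-induced protein that binds partners in cell cycle arrest and DNA repair. In the control cecum it was at 40.0, 46.6, 64.0 and 42.7 CPM, and in the arsenic cecum at 34.5, 19.8, 14.9, 15.9 and 14.2 CPM. The groups did not overlap, though arsenic library 11 was close to the lowest control. The log2 change was -1.24 ± 0.30 (edgeR adjusted p = 0.0203), and it was called in 9 of 9 fits that left out a library, with -1.54 (edgeR adjusted p = 0.000162) without arsenic library 11.

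Gadd45a was also the gene nearest to a call in the colon. It was at 27.2, 25.98, 28.8, 20.1 and 17.8 CPM in the colon controls and at 18.01, 12.3, 16.1 and 13.3 CPM on arsenic, where 3 of 4 libraries lay below every control. The log2 change was -0.68 ± 0.17 (edgeR adjusted p = 0.104), which DESeq2 (adjusted p = 0.0125) and limma voom with sample weights (adjusted p = 0.0409) called. In the ileum it was at 27.6 to 33.7 CPM on control and 19.9 to 30.7 CPM on arsenic feed (-0.34 ± 0.13, edgeR adjusted p = 0.133).

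Cdkn1a did not separate by diet. In the ileum it was at 215.6, 226.5, 252.2 and 248.0 CPM on control and at 213.5, 264.3, 323.8, 186.8 and 350.7 CPM on arsenic feed, the arsenic libraries lying on both sides of the controls. In the cecum it was at 537.1, 505.2, 630.1 and 561.6 CPM against 672.3, 519.1, 501.7, 534.2 and 518.0 CPM, and in the colon at 247.7, 346.6, 428.0, 366.8 and 361.4 CPM against 565.3, 360.0, 465.6 and 376.7 CPM. The log2 changes were 0.14 ± 0.18, 0.01 ± 0.09 and 0.34 ± 0.17 (edgeR adjusted p = 0.672, 0.925 and 0.409), so in these libraries any change of Cdkn1a was within their spread.

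Mdm2 and Ccng1 act on p53 itself: Mdm2 marks p53 for degradation, and cyclin G1 brings a phosphatase to Mdm2. In the cecum Mdm2 was at 80.6, 81.6, 122.6 and 86.5 CPM on control and at 63.1, 64.3, 66.5, 57.0 and 74.2 CPM on arsenic feed. The groups did not overlap, and control library 4 was the highest. The log2 change was -0.47 ± 0.12 (edgeR adjusted p = 0.0182), and -0.31 without control library 4 (edgeR adjusted p = 0.0113).

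In the ileum 4 of 5 arsenic libraries had less Mdm2 than every control (41.6, 50.6, 50.4 and 46.0 CPM, against 59.5 to 72.7 CPM), while library 15 was at 71.8 CPM. The change was not called (-0.33 ± 0.14, edgeR adjusted p = 0.172), but was without library 15 (-0.44, edgeR adjusted p = 0.0233). In the colon the groups overlapped fully, at 40.3 to 58.4 CPM on control and 46.6 to 55.8 CPM on arsenic feed (0.00 ± 0.11).

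Ccng1 had small but tight differences of opposite sign in ileum and cecum. In the cecum it was at 91.9, 95.1, 105.4 and 98.1 CPM on control and at 128.2, 103.3, 116.9, 115.2 and 114.6 CPM on arsenic feed, with 4 of 5 arsenic libraries above every control. It rose by 0.28 ± 0.07 (log2 scale, edgeR adjusted p = 0.00917). In the ileum it was at 96.2, 88.9, 97.1 and 88.1 CPM on control and at 87.5, 86.4, 73.8, 83.7 and 75.0 CPM on arsenic feed; the groups did not overlap, yet the difference was not called (-0.23 ± 0.09, edgeR adjusted p = 0.157). In the colon both groups were at 94.5 to 105.5 CPM.

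**Figure D3:**
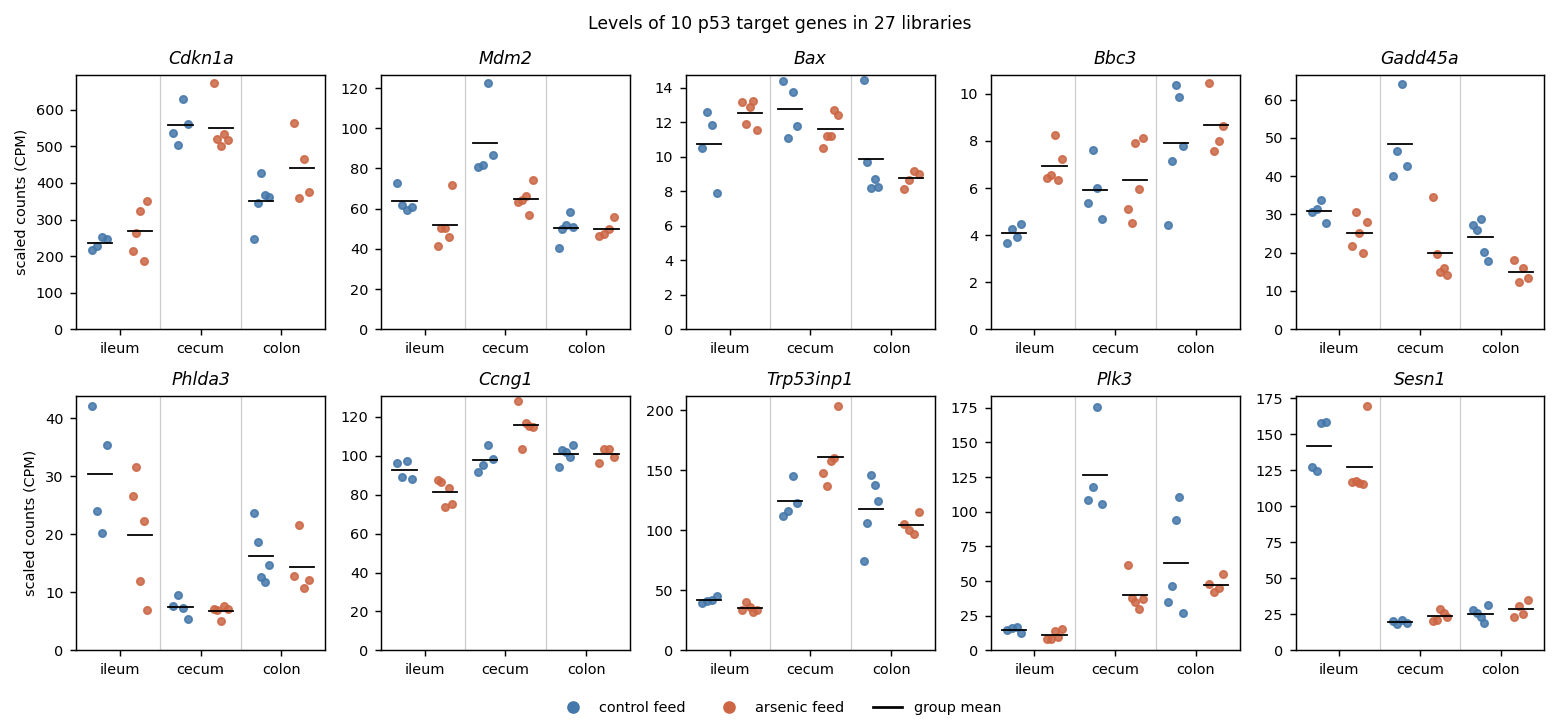
Scaled counts (CPM) of each of the 10 genes in all 27 libraries by region, blue for control and orange for arsenic feed, black bars for group means. Plk3, Gadd45a and Mdm2 in the cecum and Bbc3 and Ccng1 in the ileum are the panels in which the 2 colours do not overlap.

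Groups that did not overlap were thus found for 3 of 10 genes in the cecum (22.2% of all genes tested there), 2 of 10 in the ileum (13.4%) and 0 of 10 in the colon (7.82%). The plot of levels by library shows these separations for each gene.

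Of the genes of cell death, Bbc3 encodes PUMA, a small protein that frees Bax and its relatives to act, and Bax forms pores in the outer membrane of mitochondria. In the ileum Bbc3 was at 3.68, 4.25, 3.94 and 4.46 CPM on control and at 6.40, 6.56, 8.24, 6.35 and 7.22 CPM on arsenic feed. Every arsenic library was above every control, and the log2 change was 0.73 ± 0.15 (edgeR adjusted p = 0.0206). Its level was 4.08 ± 0.344 CPM (SD, n = 4) on control and 6.95 ± 0.796 CPM (n = 5) on arsenic feed. The call was lost without ileum control 1, 2 or 3 (edgeR adjusted p = 0.0564, 0.0792 and 0.0662), and it held without ileum arsenic 14 and 15 together (0.79, edgeR adjusted p = 0.0446).

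In the cecum and colon Bbc3 did not differ beyond its spread, at 4.70 to 7.60 against 4.53 to 8.14 CPM and at 4.45 to 10.4 against 7.56 to 10.5 CPM. Bax was called in no region: in the ileum it was at 7.89 to 12.6 CPM on control and 11.6 to 13.2 CPM on arsenic feed, in the cecum at 11.1 to 14.4 and 10.5 to 12.7 CPM, and in the colon at 8.21 to 14.4 and 8.15 to 9.21 CPM. Phlda3 was called in no region either, and its widest spread was in the ileum, with 20.2 to 42.0 CPM on control and 7.01 to 31.6 CPM on arsenic feed (-0.65 ± 0.41, edgeR adjusted p = 0.373).

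Trp53inp1 and Sesn1, which tie p53 to autophagy and to nutrient sensing, rose in the cecum. Trp53inp1 was at 112.3, 116.2, 145.1 and 122.8 CPM on control and at 148.0, 137.1, 157.5, 160.7 and 203.7 CPM on arsenic feed, 4 of 5 arsenic libraries being above every control. The log2 change was 0.42 ± 0.11 (edgeR adjusted p = 0.0166), and the call was lost without control library 1 (0.37, edgeR adjusted p = 0.0547) and with all 27 libraries in 1 fit (edgeR adjusted p = 0.0772). In the ileum 4 of 5 arsenic libraries were below every control, at 32.3 to 40.5 against 39.2 to 45.0 CPM (-0.29 ± 0.09, edgeR adjusted p = 0.0757). In the colon its arsenic libraries lay inside the control range.

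Sesn1 in the cecum was at 20.2, 18.6, 21.1 and 18.8 CPM on control and at 20.3, 20.8, 28.7, 25.7 and 22.8 CPM on arsenic feed, with 3 of 5 arsenic libraries above every control. The log2 change of 0.31 ± 0.11 was the least firm of the 6 calls (edgeR adjusted p = 0.0448). It was lost without cecum control 1, 2 or 5 or cecum arsenic 13 or 14 (edgeR adjusted p from 0.0793 to 0.113), with DESeq2 (adjusted p = 0.0564) and with all 27 libraries in 1 fit (edgeR adjusted p = 0.263). In the ileum, where Sesn1 is most abundant, 4 of 5 arsenic libraries were at 115.4 to 117.7 CPM, below every control, while library 15 was at 169.3 CPM, above all of them (-0.20 ± 0.14, edgeR adjusted p = 0.408).

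Averaged over the 3 regions, 4 of the 10 genes were called, against 19.7% of 17763 genes (9.53% higher and 10.2% lower). Gadd45a fell (log2 change -0.75 ± 0.12, edgeR adjusted p = 9.13e-05), as did Plk3 (-0.83 ± 0.18, edgeR adjusted p = 0.00202) and Mdm2 (-0.27 ± 0.08, edgeR adjusted p = 0.0161), and each was called in 27 of 27 fits that left out a library. Bbc3 rose (0.33 ± 0.12, edgeR adjusted p = 0.0482), but kept its call in only 9 of those 27 fits. It lost the call without a filter (edgeR adjusted p = 0.0829), without ileum arsenic 14 and 15 together (edgeR adjusted p = 0.0592) and with a replicate block (limma adjusted p = 0.0926). The sign of the change was the same in all 3 regions for 5 of the 10 genes: higher on arsenic for Cdkn1a and Bbc3, and lower for Gadd45a, Phlda3 and Plk3, though the Cdkn1a value in the cecum was close to 0 and turned to -0.03 with all 27 libraries in 1 fit.

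A test of whether the arsenic effect differed between regions called 1 of the 10 genes, against 7.62% of all genes (unadjusted, 6 of 10 against 22.2%). This was Ccng1 (edgeR F-test, adjusted p = 0.0189), whose call was lost without the filter on low counts (edgeR adjusted p = 0.0956), without cecum control 1 (edgeR adjusted p = 0.0535) and with a replicate block (edgeR adjusted p = 0.0558). Taken pair by pair, 3 of 10 effects differed between cecum and ileum, against 11.4% of all genes (2.88% higher and 8.49% lower in the cecum). The Ccng1 effect was 0.43 ± 0.10 higher in the cecum (log2, edgeR adjusted p = 0.00568), that of Trp53inp1 0.63 ± 0.20 higher (edgeR adjusted p = 0.038) and that of Gadd45a was lower, by -0.98 ± 0.30 (edgeR adjusted p = 0.0327).

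Of 27 fits that left out a library, 18 called the Gadd45a difference and 17 the Trp53inp1 difference, with edgeR adjusted p up to 0.0784 and 0.0883, while all 27 called that of Ccng1. The Gadd45a difference was also lost with upper-quartile scaling (-0.82, edgeR adjusted p = 0.0756) and without a filter (-0.98, edgeR adjusted p = 0.0716). Plk3 missed the threshold (-1.23 ± 0.45, edgeR adjusted p = 0.0779), and passed it without cecum arsenic 11 (edgeR adjusted p = 0.0409) or colon control 4 (edgeR adjusted p = 0.0469), by DESeq2 (-1.21, adjusted p = 0.0396) and with a replicate block (-1.14, adjusted p = 0.0369). No member differed between colon and cecum (0% of all genes; at an unadjusted p under 0.05, 4 of 10 against 7.28%) or between colon and ileum (2.25% of all genes; unadjusted, 1 of 10 against 17.4%) by edgeR. DESeq2 called 0 members in these 2 comparisons, and limma voom with sample weights called Plk3 between colon and cecum (1.6, adjusted p = 0.0231).

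The gene of p53 itself and its second brake changed in the ileum. Trp53 was at 25.6, 30.2, 35.0 and 33.0 CPM in the control ileum and at 39.3, 39.8, 52.5, 44.4 and 42.2 CPM in the arsenic ileum. Mdm4, which binds and silences p53 without degrading it, was at 137.7, 155.9, 136.1 and 131.3 CPM against 116.5, 81.7, 104.5, 91.3 and 95.7 CPM. Neither pair of groups overlapped: Trp53 was higher by 0.46 ± 0.12 (log2 scale, edgeR adjusted p = 0.0432) and Mdm4 lower by -0.56 ± 0.12 (edgeR adjusted p = 0.0226). They are named because they were the 2 genes called in the ileum of 15 tested genes of p53 and its regulators. Over all genes tested there 7.3% were called, and 13.4% had groups that did not overlap.

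Both effects differed between regions (edgeR F-test, adjusted p = 0.0167 for Trp53 and 0.00362 for Mdm4), though that of Trp53 not with upper-quartile scaling (adjusted p = 0.0599). In the cecum Trp53 was at 34.5 to 45.7 CPM on control and 34.0 to 39.0 CPM on arsenic feed, and in the colon at 27.5 to 34.2 and 25.7 to 32.5 CPM. Within the ileum the calls were fragile: that of Trp53 held in 2 of 9 fits that left out a library, the one without arsenic 11 and the one without arsenic 15, and that of Mdm4 in 4 of 9 (control 5, arsenic 11, 13 and 15 left out). Without ileum arsenic 14 and 15 together the values were 0.50 for Trp53 (edgeR adjusted p = 0.078) and -0.48 for Mdm4 (edgeR adjusted p = 0.0746).

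**Figure D4:**
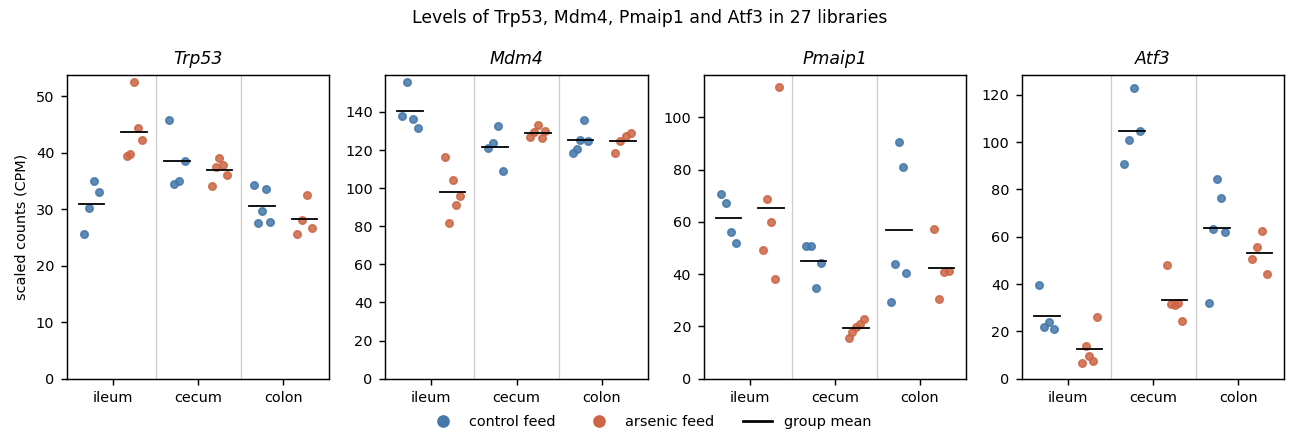
Scaled counts (CPM) of Trp53, Mdm4, Pmaip1 and Atf3 in all 27 libraries by region, blue for control and orange for arsenic feed, black bars for group means. In the ileum the 5 arsenic libraries lie above the controls for Trp53 (39.3 to 52.5 against 25.6 to 35.0) and below them for Mdm4, and in the cecum they lie below the controls for Pmaip1 and Atf3.

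Other genes known as p53 targets were counted by role. In the cecum 4 of 15 tested genes of cell cycle and repair were called, 2 higher and 2 lower, a share near the 25.2% of all genes called there. Plk2, a relative of Plk3, rose by 0.80 ± 0.16 and Rprm, which blocks entry into mitosis, by 0.79 ± 0.23, while the antiproliferative gene Btg2 fell by 0.62 ± 0.10 and Ccnd2, a D-type cyclin, by 0.45 ± 0.12. Of 15 genes of cell death 5 were called, 1 higher and 4 lower, beside 11.3% higher and 13.9% lower over all genes. Pmaip1, which encodes the PUMA relative NOXA, fell by 1.19 ± 0.12, from 45.1 ± 7.62 CPM (SD, n = 4) to 19.3 ± 2.71 CPM (n = 5), with no overlap. Trp53i11 fell by 0.53 ± 0.09, the death receptor gene Tnfrsf10b by 0.62 ± 0.14 and the apoptosome gene Apaf1 by 0.53 ± 0.12. The 1 that rose, named after its value was seen, was the receptor gene Eda2r (0.87 ± 0.30).

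Of 14 tested genes of metabolism and stress 6 were called in the cecum, 2 higher and 4 lower, against 25.2% of all genes, among them the sestrin Sesn2, which fell by 0.50 ± 0.11, the lipase Abhd4 at -0.35 ± 0.07, Ephx1, an epoxide hydrolase that rose by 0.46 ± 0.10, and Igfbp3, which binds insulin-like growth factors, at 0.54 ± 0.13. Of 15 tested genes of p53 and its regulators 6 were called, 5 higher and 1 lower, against the same 25.2% (11.3% higher and 13.9% lower). The damage kinases Atm and Atr rose by 0.55 ± 0.12 and 0.65 ± 0.12, Sirt1, a deacetylase of p53, by 0.42 ± 0.09, and the checkpoint kinase Chek2 fell by 0.51 ± 0.11. The medians of these 4 lists in the cecum, 0.04, -0.11, -0.06 and 0.12 on the log2 scale, compare with 0.02 over all genes.

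In the ileum 1 of 45 tested genes of the 3 lists of other targets was called, Dcxr, which stands in the list of cell death but encodes a carbonyl reductase (0.76 ± 0.18, edgeR adjusted p = 0.0339), against 7.3% of all genes. In the colon edgeR called 0 of 45, and 2 of 45 had an unadjusted p under 0.05, both of cell cycle and repair, against 0.649% and 14.6% of all genes. Paralogs of the 10 genes in the cecum counted 6 of 15 called, against 25.2% of all genes, 1 higher (Plk2) and 5 lower, among them Sesn2, Gadd45b (-0.60 ± 0.15) and Sesn3 (-0.36 ± 0.09). Of 16 genes of G2 and mitosis, 1 was called in the cecum, Nusap1, which rose by 0.33 ± 0.10, where 25.2% of all genes were called. None was called by edgeR in the ileum or colon, where 3 and 1 had an unadjusted p under 0.05, against 25% and 14.6% of all genes. Several genes stand in 2 lists (Btg2, Pmaip1, Plk2, Sesn2 and Mdm4 among them).

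**Figure D5:**
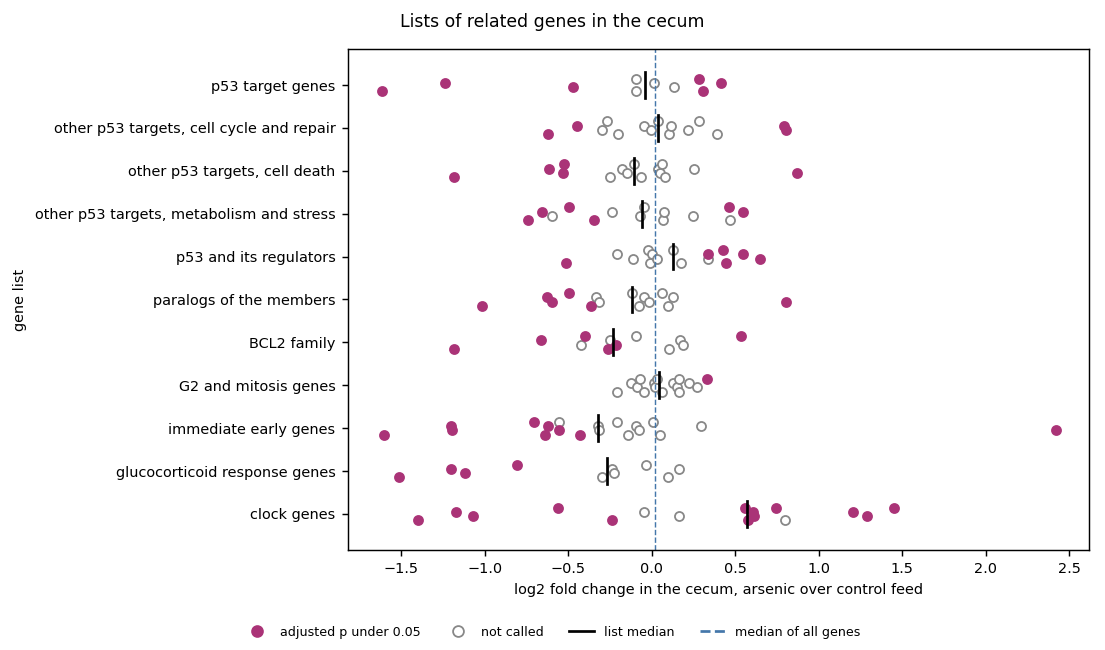
Log2 change in the cecum of every tested gene of 11 lists, one point per gene, filled where the edgeR adjusted p was under 0.05, with the list median in black and the all-gene median dashed. The p53 target genes spread to both sides, with a median of -0.04. The immediate early genes and the glucocorticoid response genes have most filled points on the left. So do the paralogs, the BCL2 family and the other p53 targets of cell death and of metabolism and stress.

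Other groups of genes moved with the cecum results; their counts stand beside 25.2% of all genes called there, 11.3% higher and 13.9% lower. Immediate early genes, which respond within minutes to stimulation and handling, had 9 of 19 called, 8 lower and 1 higher. Their summed level was 3110 to 3720 CPM in control and 2160 to 2470 CPM in arsenic libraries. Atf3, a stress transcription factor, was at 90.7, 101.1, 122.8 and 104.7 CPM on control and at 48.2, 31.6, 31.1, 32.1 and 24.2 CPM on arsenic feed; library 11 was again the highest of the 5, as for Plk3 and Gadd45a. Genes of the glucocorticoid response had 4 of 10 called, all lower, with sums of 1350 to 1660 against 749 to 994 CPM. Clock genes had 13 of 16 called, 8 higher and 5 lower, with Cry1 at -1.40 ± 0.09 and Dbp at 1.45 ± 0.14.

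Some cell type markers also shifted in the cecum, where 25.2% of all genes were called (11.3% higher and 13.9% lower) and 38.4% had an unadjusted p under 0.05. Called were 0 of 6 markers of enteric neurons and glia, 0 of 4 of fat and mesothelium, 1 of 6 of macrophages (lower) and 1 of 4 tested of stem cells (lower). Of 3 tested plasma cell markers 1 was higher, as was 1 of 3 tested Paneth cell markers. Of 8 epithelial markers 3 were lower (Cdh1, Krt18 and Krt20), and their sum was 20800 to 22900 CPM on control and 17500 to 20900 CPM on arsenic feed. Smooth muscle had 3 of 8 markers higher (sums of 2840 to 3860 against 3260 to 5310 CPM), fibroblasts 3 of 6 (337 to 459 against 435 to 493 CPM), endothelium 2 of 5 (43.7 to 49.3 against 55.1 to 66.5 CPM) and T cells 5 of 7 (16.4 to 26.1 against 23.5 to 42.6 CPM), and goblet cells had 3 of 6 lower (6600 to 7710 against 4890 to 5890 CPM). Of 6 tested markers of the large intestine 5 were lower (33800 to 42000 against 29100 to 33800 CPM). B cell markers (0 of 6 called by edgeR, 5 with an unadjusted p under 0.05) summed to 2.40 to 36.9 CPM on control and 9.30 to 174 CPM on arsenic feed. The part of these groups in the changes of Plk3, Gadd45a, Mdm2, Ccng1, Trp53inp1 and Sesn1 was not tested.

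The ileum counts that follow stand beside 7.3% of all genes called there and 25% with an unadjusted p under 0.05. Markers of smooth muscle had 0 of 8 called by edgeR but 6 with an unadjusted p under 0.05. They summed to 3650 to 7000 CPM on control and 3700 to 4140 CPM on arsenic feed. Paneth cell markers (0 of 6 called, 5 unadjusted) summed to 8010 to 14200 against 3290 to 9890 CPM. Goblet cell markers (0 of 6 called, 4 unadjusted) summed to 9170 to 11300 against 6860 to 12600 CPM. Epithelium had 0 of 8 called and 2 unadjusted, fibroblasts 0 of 6 and 1, and endothelium 0 of 5 and 1. Markers of T cells, B cells, plasma cells, macrophages, stem cells, enteric neurons and glia, and fat and mesothelium had 0 called and 0 unadjusted. Of 16 clock genes 2 were called by edgeR and 8 had an unadjusted p under 0.05, with a median of 0.04 on the log2 scale. Arntl and Clock were lower (-0.91 ± 0.22 and -0.43 ± 0.10), Arntl not without ileum arsenic 14 and 15 (edgeR adjusted p = 0.109). Dbp (1.34 ± 0.39) and Ciart (0.98 ± 0.27) missed the threshold (edgeR adjusted p = 0.0721 and 0.0536) and were called higher by DESeq2 (adjusted p = 0.00446 and 0.00848) and by limma voom with sample weights (adjusted p = 0.0234 and 0.0248). Of 10 glucocorticoid response genes 2 were called, both lower, with sums of 534 to 739 CPM on control (median 717) and 292 to 756 CPM on arsenic feed (median 343). The part of these groups in the Bbc3, Trp53 and Mdm4 results was not tested.

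Colon control library 1, which had the highest Mt1 of its group, was also the lowest colon control for Cdkn1a, Mdm2, Bbc3, Ccng1 and Trp53inp1 and the highest for Bax and Phlda3. Without it, 0 of the 10 genes were called in the colon, as with it. In that region the glucocorticoid response genes had 0 of 10 called by edgeR and 4 with an unadjusted p under 0.05 (0.649% and 14.6% of all genes). They summed to 865 to 1120 CPM on control and 597 to 727 CPM on arsenic feed. Clock genes had 1 of 16 called by edgeR (lower) and 10 with an unadjusted p under 0.05. Immediate early genes had 0 of 20 called by edgeR and 7 with an unadjusted p under 0.05. The part of these 3 lists in the Gadd45a values was not tested.

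For a description of which genes varied most alike, log2 levels over the 27 libraries were correlated among 13492 genes; the libraries share region, diet and depth, and no test was made. Sesn1 was closest to Maf (Pearson r = 0.986), Cndp2 and Aspa, Trp53inp1 to Heca (0.978), Mtmr6 and Acsl3, and Phlda3 to Tmem179 (0.96), Pygl and Dlc1. Cdkn1a was closest to Unc5b (0.953), a netrin receptor gene, Map2k1 and Parp4, and Plk3 to Mtfr1 (0.944), Hk2 and Naif1. Lower values were found for Mdm2 with Zfp384 (0.909), Bax with Mrpl52 (0.891), Ccng1 with Zfp644 (0.87), Bbc3 with Sipa1l3 (0.84) and Gadd45a with Stip1 (0.824). None of the nearest 3 neighbours of any of the 10 genes was another of the 10. With so few genes among 13492 this would be usual for any 10 genes, so it says nothing about shared regulation.

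Part of the exon sequence of 4 of the genes is shared with a neighbour, so their counts carry some doubt. Gadd45a shares 337 bases with E230016M11Rik, Cdkn1a 273 bases with AC167363.2 and Plk3 84 bases with Tctex1d4, each on the opposite strand, and Bax shares 192 bases with Gm45808 on the same strand. Whether reads were counted by strand is not given in the sources used here.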

How the data were processed

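Poly-A RNA from whole gut segments was sequenced as 150 bp read pairs from NEBNext Ultra libraries, per the labels' protocols. The deposited files hold raw read counts per gene for 27 libraries, and tools listed for them, per the submitters' processing notes, are DESeq2 1.6.3, HISAT2 2.1.0, HTSeq 0.6.0 and SAMtools. Build, annotation and strand setting are not given in the sources used here.

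Counts were tested with the quasi-likelihood F-test of edgeR 4.0.16 (R 4.3.3), after filterByExpr (minimum count 10, minimum total 15) and TMM scaling, with Benjamini-Hochberg adjustment over all genes tested and a threshold of 0.05. Diets were compared within each region, control regions in 1 fit of 13 libraries, and averages and differences of effects in 1 fit of 27. CPM levels use TMM factors over all 27 libraries. Symbols matched 52403 of 52550 genes. Promoters came from the RefSeq table of GRCm38.p6, used for sequences and not for the counts, and exon lengths and overlaps came from the reference annotation.

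Alternatives were RLE and upper-quartile scaling, no filter, a filter of 1 CPM, limma 3.58.1 voom with sample weights (statmod 1.5.0), DESeq2 1.42.0, all 27 libraries in 1 fit, a replicate block and leaving out each library. A fit without ileum arsenic 14 and 15 together was chosen after seeing the data. The scripts were tested on simulated data. The 10 genes and all lists were chosen with earlier results of these data known. Named genes were the 10, up to 4 called genes of each other list by smallest p, and for each of the 10 the 3 genes most alike (Pearson correlation of log2 CPM with prior count 2).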

Additional observations from a re-analysis of the deposited data

Results flagged for a closer look

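In 7 of 60 groups of libraries the highest or lowest library of a gene stood far from the rest; chance alone marks about 1 in 20 such groups. The measure is the gap to the nearest other library as a share of the range of the group. Cecum arsenic library 11 was the highest of 5 for Cdkn1a (0.809), Gadd45a (0.727) and Plk3 (0.754). Leaving it out, the log2 change in the cecum was -1.54 for Gadd45a (edgeR adjusted p = 0.000162) and -1.83 for Plk3 (edgeR adjusted p = 0.000281).

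Cecum control library 4 was the highest of 4 for Mdm2 (0.86), and colon control library 1 the highest of 5 for Bax (0.758). Cecum arsenic library 13 was the lowest of 5 for Phlda3 (0.74), and ileum arsenic library 15 the highest of 5 for Sesn1 (0.957).

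The arsenic effect differed between the 3 regions for Ccng1 (edgeR F-test, adjusted p = 0.0189). Between cecum and ileum, effects differed for Gadd45a by -0.98, for Ccng1 by 0.43 and for Trp53inp1 by 0.63 on the log2 scale.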

How the results depend on the processing

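No value for the 10 genes that passed its test changed sign under any alternative run. In the cecum, 6 of the 10 genes were called, and 4 to 6 when 1 library was left out. The other counts of called genes over such fits were 0 to 2 in the ileum, 0 in the colon, 3 to 4 for the average of the regions, 0 to 2 for effects differing between regions, 1 to 4 for cecum minus ileum, 0 for colon minus cecum and for colon minus ileum, 7 to 8 for cecum against ileum, 4 to 7 for colon against cecum and 6 to 8 for colon against ileum. Limma voom with sample weights called 3 in the ileum (adding Mdm2 and Plk3), 1 in the colon, 1 for colon minus cecum and 2 for effects differing between regions. For that last test upper-quartile scaling called 2, DESeq2 3 and the fit without a filter 0, and DESeq2 called 1 in the colon; the cause was not tested.

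The effect differing between regions was called for Gadd45a without cecum arsenic 11 (edgeR adjusted p = 0.00544), for Trp53inp1 without colon control 1 (0.00632) and for Plk3 without colon control 4 (0.0279). Over all genes, the ileum count of 1190 was 121 without ileum control 2, 673 without ileum arsenic 14 and 15, 2138 with voom weights, 2051 with DESeq2 and 2889 with all 27 libraries in 1 fit. The cecum count of 3933 was 2021 in that last fit. The colon count of 107 was 493 there, 598 with voom weights, 610 with DESeq2 and 6 to 351 with 1 library left out, 351 without colon control 1. The count of 1353 genes whose effect differed between regions was 827 without a filter, 2181 with voom weights and 551 without ileum control 2. For colon minus ileum (399) it was 252 with RLE scaling, 113 without a filter and 694 with DESeq2, and for colon minus cecum (0) it was 116 with voom weights and 31 with DESeq2.

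Upper-quartile scaling moved the split of calls: 2448 higher and 1627 lower in the cecum (1768 and 2165 with TMM), 2058 and 1577 for the average (1692 and 1809), 1069 and 748 for cecum minus ileum (511 and 1508), 145 and 133 for colon minus ileum (91 and 308), 3663 and 5859 for cecum against ileum (4800 and 4466) and 4458 and 2719 for colon against cecum (3704 and 4266). It moved the median of all genes from -0.009 to 0.147 for cecum minus ileum, from -0.026 to -0.191 for cecum against ileum and from -0.045 to 0.087 for colon against cecum. The level difference of Ccng1 between cecum and ileum on control feed then turned from 0.07 to -0.10, and neither value was called.

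The labels do not state that a number is a mouse, so libraries with the same number in different regions were not taken as pairs. Of 24 such pairs 13 had a correlation of deviations over 0.1 (range -0.108 to 0.248, median 0.12). Each library was also compared with the libraries of the same diet in the other regions, most of which had another number. By this measure 18 of 27 libraries correlated best with a library of their own number, so shared mice are likely but not established. If equal numbers mark the same mouse, the main fits over several regions treat related libraries as independent. With a replicate block the average of the regions called 3 of the 10 genes (Bbc3 was lost, adjusted p = 0.0926 in limma), effects differing between regions 1 (edgeR adjusted p = 0.0246 for Plk3 and 0.0558 for Ccng1), cecum minus ileum 4 (adding Plk3, 0.0369), colon minus cecum 0, colon minus ileum 0, cecum against ileum 7, colon against cecum 5 and colon against ileum 8. Over all genes it called 2 for colon minus cecum. No paired analysis was possible within a region because control and arsenic libraries share no number.

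The lowest count of any of the 10 genes was 63 reads, for Bbc3. With 4 or 5 libraries a group, a change that missed the threshold is not shown to be absent, and p-values cover only these libraries.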

Other observations

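The BCL2 family, to which Bax and Bbc3 belong and which decides the release of cytochrome c from mitochondria, was measured as a whole. In the cecum 6 of 12 tested genes of the family other than these 2 were called, 1 higher and 5 lower on arsenic, against 25.2% of all genes (11.3% higher and 13.9% lower), and the median log2 change was -0.23 beside 0.02 over all genes. The survival gene Bcl2l1 fell by 0.40 ± 0.07 and the death genes Pmaip1 and Bik by 1.19 ± 0.12 and 0.66 ± 0.20, while Bcl2l11, which encodes the death protein BIM, rose by 0.54 ± 0.12. In the ileum and the colon edgeR called 0 of 12, against 7.3% and 0.649% of all genes. At an unadjusted p under 0.05 the edgeR counts were 2 and 0, against 25% and 14.6% of all genes.

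Of the immediate early genes, the list in which Atf3 stands, 1 of 20 was called in the ileum, against 7.3% of all genes. That gene was Jund, which rose by 0.84 ± 0.12 (edgeR adjusted p = 0.00662). Atf3 itself was at 20.8 to 39.7 CPM in the control ileum and at 6.60 to 26.3 CPM in the arsenic ileum, where library 15 was the highest of the 5. EdgeR did not call Atf3 there (-1.12 ± 0.39, adjusted p = 0.115), but did without ileum arsenic 14 and 15 (-1.42, adjusted p = 0.0443) and with all 27 libraries in 1 fit (-1.08, adjusted p = 0.0232). DESeq2 (-1.08, adjusted p = 0.0443) and limma voom with sample weights (-1.35, adjusted p = 0.015) called it lower.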
